A study of Homo sapiens with 8 samples.

Results

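Docetaxel sensitive PC3 cells were compared with docetaxel sensitive DU145 cells through their 4 bulk RNA-seq libraries, 2 per line, taken by their titles from a series of 8 libraries. PC3 and DU145 are human prostate cancer cell lines, PC3 established from a bone metastasis and DU145 from a brain metastasis. Both sensitive lines were kept in medium with 0.1% DMSO. The other 4 libraries were resistant PC3 and resistant DU145 cells, 2 each, kept in medium with 10 nM docetaxel, a taxane that stabilizes microtubules. Total RNA was the input, prepared with a SMART-seq kit. Each resistant line is a single labelled variant of its parent. The labels do not tell whether the 2 libraries of a line stem from different cultures. The p-values reflect the spread between libraries of the same group, estimated over all 8 libraries, and this spread may be technical.

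Prostate epithelium holds luminal cells, which express simple keratins and secretory genes, and basal cells, which express stratified keratins and TP63. PC3 is known to have lost CTNNA1 and STAT3 by deletion, while DU145 is known to lack functional RB1 and STK11. These are background facts and were not taken from the counts.

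Total counts ranged from 31685148 to 35929921 in the 4 sensitive libraries, and mitochondrial genes took 0.661% to 2.07% of them. CPM, the count scaled to a fixed library size, is the unit of level throughout. As a description across genes, Pearson's r of log2(CPM + 1) was 0.993 between the DU145 libraries, 0.996 between the PC3 libraries and 0.884 to 0.891 between lines. Luminal keratins and EPCAM were present in both lines, and KLK3 and KRT5 were at 0 counts. Markers of leukocytes, endothelium, stroma and blood were at trace levels. The 21 such markers summed to 3.76 and 4.20 CPM in DU145 and to 10.3 and 13.4 CPM in PC3, with CD3E, HBB and HBA1 at 0 counts in all 4 libraries.

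The 250 bases before the RefSeq transcription start are shown for 4 genes that were near absent in 1 line. They were the most abundant such gene on each side and 2 genes whose neighbors were near absent with them. UCHL1 and STAT3 were near absent in PC3, and IGFBP5 and PRAC1 in DU145. Gene positions elsewhere in the text come from another annotation, GENCODE, whose starts can differ from those of RefSeq. It starts UCHL1 at 41256413, so the UCHL1 window lies inside the gene by that annotation. On the minus strand it starts STAT3 at 42388540, so part of the STAT3 window lies inside the gene too. The sequences are those of RefSeq on GRCh38.p14, read 5′ to 3′ on the strand of the gene, with each CG dinucleotide in capitals.
UCHL1 (chr4:41256678-41256927, + strand): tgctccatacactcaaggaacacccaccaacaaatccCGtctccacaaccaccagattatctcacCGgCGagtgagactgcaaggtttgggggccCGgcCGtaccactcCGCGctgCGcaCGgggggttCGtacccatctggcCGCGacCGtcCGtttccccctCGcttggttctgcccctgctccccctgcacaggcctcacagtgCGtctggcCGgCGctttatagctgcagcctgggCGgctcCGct
STAT3 (chr17:42388443-42388692, - strand): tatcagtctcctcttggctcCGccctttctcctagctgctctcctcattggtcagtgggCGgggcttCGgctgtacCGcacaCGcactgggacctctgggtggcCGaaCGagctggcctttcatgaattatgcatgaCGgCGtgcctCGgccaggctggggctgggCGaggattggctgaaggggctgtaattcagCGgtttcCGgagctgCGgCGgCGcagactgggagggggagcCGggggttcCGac
IGFBP5 (chr2:216695550-216695799, - strand): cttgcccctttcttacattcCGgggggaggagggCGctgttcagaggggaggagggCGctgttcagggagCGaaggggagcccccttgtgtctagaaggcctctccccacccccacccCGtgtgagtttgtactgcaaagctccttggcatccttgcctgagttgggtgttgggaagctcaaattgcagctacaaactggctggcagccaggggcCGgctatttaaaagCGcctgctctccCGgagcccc
PRAC1 (chr17:48722519-48722768, - strand): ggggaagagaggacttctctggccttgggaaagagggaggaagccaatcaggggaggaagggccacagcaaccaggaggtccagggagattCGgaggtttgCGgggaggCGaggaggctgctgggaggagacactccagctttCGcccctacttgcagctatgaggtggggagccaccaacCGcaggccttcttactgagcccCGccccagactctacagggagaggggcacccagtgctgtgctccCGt
The UCHL1 window held 20 CG dinucleotides, STAT3 18, IGFBP5 8 and PRAC1 7, and the median over all 35116 windows of the table was 11. At least as many as in UCHL1 were held by 32.4% of windows, and at least as many as in PRAC1 by 58.9%. Of the protein-coding genes near absent in PC3, 52 of 79 had a window, and of those near absent in DU145, 60 of 73. The promoters of the 2 sets were not compared.

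The 2 lines differed in most of the genes that they expressed. Of 20238 genes tested, 5796 were higher in PC3, or 28.6%, and 5901 were lower, or 29.2%, at an adjusted p under 0.05 in edgeR's quasi-likelihood test. A stricter rule that also asked for at least a 4-fold difference took 1762 genes higher in PC3, or 8.71%, and 2550 lower, or 12.6%. The libraries of the lines did not overlap for 80.4% of genes tested. With a background this high, counts of list members called are read below against these shares and against the 57.8% called either way. Weight is given to direction and, where printed, to 4-fold members. The log2 fold changes are PC3 minus DU145, their error is the standard error of the fit, and each line has n = 2. In bulk RNA, fewer cells that express a gene and less of its RNA per cell cannot be told apart.

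Genes near absent in 1 line were defined by level, at 20 CPM or more in both libraries of the higher line and at most 1% of its mean in both libraries of the other. By this rule 84 of the 7818 genes at that level in DU145 were near absent in PC3, and 78 of the 8180 at that level in PC3 were near absent in DU145. Y-linked genes were left out. The gene just inside the limit was TSPAN14 at 0.994% and the gene just outside CADM1 at 1.04% for PC3. For DU145 they were RPL13P12 at 0.997% and SPTSSB at 1.0001%. Few of these genes were at 0: only IL33 and SLCO3A1 had 0 counts in both libraries, both in DU145. Among genes with 100 CPM or more in 1 line, none had 0 counts in either library of the other, where the lowest share was 0.105% to 0.135%. Values near that share are therefore given as counted levels, from which neither absence nor expression of the gene is read. STAT3 and CTNNA1, known to be deleted in PC3, were still at 0.317% and 0.592% of their DU145 mean there. Where such reads come from was not tested.

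**Figure D1:**
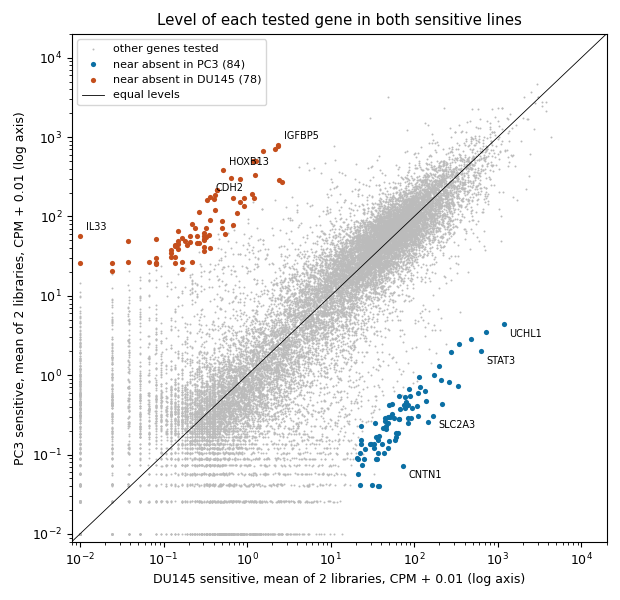
Mean CPM of each tested gene in the 2 DU145 sensitive libraries (x axis) and the 2 PC3 sensitive libraries (y axis), both plus 0.01 on log axes. The 84 genes near absent in PC3 lie along the lower right and the 78 near absent in DU145 along the upper left. Their distance from the line of equal levels follows from the rule.

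UCHL1, a ubiquitin hydrolase of neurons and neuroendocrine cells, was the most abundant gene near absent in PC3, at 1274 and 1098 CPM in DU145 and 3.41 and 5.32 CPM in PC3, a log2 fold change of -8.09 ± 0.26 (adjusted p = 4.9e-09 in edgeR). PTRF, which encodes the caveolar coat protein cavin-1, was at 705 and 743 CPM in DU145 and 3.26 and 3.76 CPM in PC3. ABCC2, an efflux transporter of conjugated drugs, was at 359 and 337 CPM in DU145 and 2.32 and 2.56 CPM in PC3. The levels of these 3 genes in PC3 were all below 6 CPM. Near absent genes were picked by the levels in these same libraries. The gap between the lines and their adjusted p, here and below, are therefore no further support. Further members on this side included PTPRG, a receptor phosphatase (-8.86 ± 0.22), KLB, the co-receptor of endocrine FGFs (-8.30 ± 0.29), LMO3 (-8.96 ± 0.43) and the virus receptor and junction protein CXADR (-7.90 ± 0.29). CNTN1, a neural adhesion protein, had one of the lowest shares, at 91.7 and 56.2 CPM in DU145 and at 3 counts and 1 count in PC3.

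IGFBP5, a secreted protein that binds insulin-like growth factors, was the most abundant gene near absent in DU145, at 1.96 and 2.71 CPM in DU145 and 743 and 869 CPM in PC3, a log2 fold change of 8.43 ± 0.42 (adjusted p = 6.5e-08 in edgeR). INHBB, the activin beta B subunit, was at 1.74 and 2.54 CPM in DU145 and 811 and 619.6 CPM in PC3. Both encode secreted proteins. IL33, an alarmin cytokine, had 0 counts in both DU145 libraries against 51.2 and 63.4 CPM in PC3, so it was at least 679-fold higher in PC3 when DU145 is set to a floor of 3 counts per library. SLCO3A1, an organic anion carrier, also at 0 counts in DU145, was at 24.3 and 27.3 CPM in PC3 and at least 306-fold higher. PXDN, a matrix peroxidase (8.06 ± 0.24), ADGRF1, an adhesion G protein-coupled receptor (8.97 ± 0.36), and RELN, a secreted neuronal guidance protein (8.21 ± 0.27), belonged to the same set.

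Several near absent genes were neighbors. On chromosome 17 of hg38, STAT3 (42313324 to 42388540), PTRF and ATP6V0A1 (42458844 to 42522582), a subunit of the vacuolar proton pump, were neighbors among the tested protein-coding genes and were all near absent in PC3, as were STAT5B, KAT2A and RAB5C on the other side of STAT5A. STAT5A, between STAT5B and STAT3, was at 11 and 13.4 CPM in DU145, below the level the rule asked for, and at 0.0914 and 0.0324 CPM in PC3. NAGLU, the next tested gene after ATP6V0A1, was at 7.04 and 6.19 CPM in PC3 against 42.1 and 45.6 CPM in DU145. On chromosome 15, PARP6 and HEXA were near absent in PC3 (-7.42 ± 0.27 and -7.42 ± 0.26). Their neighbors PKM at 3297 and 3049 CPM in PC3 and ARIH1 at 96.4 and 113 CPM in PC3 were not. GRAMD2, beyond PKM, was at 4.96 and 6.38 CPM in DU145, below the level of the rule. It was at 0.122 and 0.0324 CPM in PC3. In DU145 the runs, again among tested protein-coding genes only, included PRAC1, PRAC2 and HOXB13 on chromosome 17. On chromosome 18 they were SERPINB7 with SERPINB2 and CDH7 with DSEL, and on chromosome 9 ELAVL2 with TUSC1. Some of these lie far apart. CDH7 spans 65750252 to 65890337 and DSEL 67506587 to 67516720, while ELAVL2 spans 23690104 to 23826337 and TUSC1 25676969 to 25678444. TUSC1 was at 0.0841 and 0.0564 CPM in DU145 and 26.8 and 25.2 CPM in PC3. Across whole chromosomes, the median log2 fold change of tested protein-coding genes was highest on X, at 0.82 over 496 genes, and on chromosome 20, at 0.79 over 412 genes, and lowest on chromosome 9, at -0.72 over 595 genes. On chromosome 9, 346 genes were lower in PC3 and 58 higher, where over all protein-coding genes tested 30.7% were lower and 32.7% higher. DNA copy number was not measured.

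Lineage genes differed in keratin makeup. KRT8, the main type II keratin of luminal cells, was at 2166 and 1247 CPM in DU145 and 189 and 130.0 CPM in PC3, a log2 fold change of -3.42 ± 0.27 (adjusted p = 1.8e-06 in edgeR). Its partner KRT18 was at 1911 and 1136 CPM in DU145 and 206 and 142 CPM in PC3. DU145 replicate 1 was above replicate 2 for both keratins, and both DU145 libraries were above both PC3 libraries. In contrast, KRT81, a hair keratin, was at 42.6 and 54.2 CPM in DU145 and 2712 and 3622 CPM in PC3, although it has a close copy in KRT86 and reads may have been shared between them. KRT19 was also higher in PC3, at 86.8 and 86.1 CPM in DU145 and 472 and 484 CPM in PC3. KRT7 was at 779.8 and 650.5 CPM in DU145 and 800.3 and 744 CPM in PC3 and did not pass the test.

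Luminal prostate genes went both ways. KLK3, which encodes prostate specific antigen, had 0 counts in all 4 libraries, as did the basal keratin KRT5. Of 22 genes of luminal prostate, 17 were tested, 7 higher and 4 lower in PC3. HOXB13, a homeobox gene of the posterior body and of prostate, was at 0.589 and 0.423 CPM in DU145 and 418 and 344 CPM in PC3, and SPDEF, an ETS factor of luminal cells, at 0.505 and 0.564 CPM in DU145 and 69.4 and 49.4 CPM in PC3. FOXA1, a pioneer factor of luminal cells, was higher in PC3 (1.25 ± 0.18). In the other direction, GATA2, a zinc finger factor, was at 33.7 and 26.1 CPM in DU145 and 3.93 and 1.43 CPM in PC3 (-3.47 ± 0.42). NKX2-1, a factor of lung and thyroid, was near absent in PC3, at 74.1 and 59 CPM in DU145 and 0.213 and 0.324 CPM in PC3.

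HOX genes encode factors of position along the body axis, and 34 of 39 were tested. Of these, 8 were higher and 16 lower in PC3, 5 and 12 of them by at least 4-fold. The HOXB cluster was split. HOXB7 was at 18.1 and 17.1 CPM in DU145 and 0.152 and 0.130 CPM in PC3, and HOXB9 at 14.3 and 26 CPM in DU145 and 1.04 and 1.13 CPM in PC3, both opposite to HOXB13 and to PRAC1 and PRAC2, which lie beside it. HOXA9 was higher in PC3 (5.97 ± 0.26). Neuroendocrine and neuronal genes were divided, 6 higher and 6 lower of 14 tested. The neurofilament genes went opposite ways, NEFL at 17.5 and 12.5 CPM in DU145 and 369.8 and 299 CPM in PC3 and NEFM at 13 and 13.1 CPM in DU145 and 0.457 and 0.746 CPM in PC3.

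Epithelial regulators were mostly lower in PC3, with 12 of 18 tested members lower and 1 higher and a median log2 fold change of -1.41, where the median over all genes was -0.03. ELF3, an epithelial ETS factor, was at 80.1 and 55.9 CPM in DU145 and 3.56 and 3.83 CPM in PC3. MUC1, an apical mucin, was at 199 and 149.9 CPM in DU145 and 3.56 and 4.90 CPM in PC3. CRB3, a protein of apical polarity, was at 11.7 and 13.7 CPM in DU145 and 0.152 and 0.0973 CPM in PC3. EPCAM, however, was at 21.7 and 19.8 CPM in DU145 and 26.1 and 21.5 CPM in PC3 and did not pass the test (0.20 ± 0.30). CD24, a surface glycoprotein used as a stem cell marker, was at 234 and 322 CPM in DU145 and 9.90 and 21.9 CPM in PC3.

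Mesenchymal genes leaned the other way, with 10 of 19 tested members higher and 4 lower in PC3. FN1, which encodes fibronectin, was at 22.8 and 16.8 CPM in DU145 and 295 and 297 CPM in PC3. TWIST1, a factor of epithelial-mesenchymal transition, had 0 counts in both DU145 libraries and was at 9.35 and 10.2 CPM in PC3. VIM, the intermediate filament vimentin, was abundant in both lines, at 658 and 699 CPM in DU145 and 1013 and 983 CPM in PC3, and differed by less than 2-fold (0.56 ± 0.15). ZEB1, a repressor of CDH1, was at 43.6 and 52.6 CPM in DU145 and 59.8 and 67.5 CPM in PC3 and did not pass the test. FBN1, a microfibril component of the same list, was lower in PC3 (-2.96 ± 0.26). The list was thus mixed, and 4 of its members were at least 4-fold lower in PC3.

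Adhesion genes differed in which cadherins the lines expressed. Cadherins join neighboring cells and are tied to actin through the catenins. CDH1, the epithelial cadherin, was low in DU145 and lower still in PC3, at 24.2 and 20.9 CPM in DU145 and 1.07 and 0.811 CPM in PC3, a log2 fold change of -4.58 ± 0.28 (adjusted p = 3.1e-07 in edgeR). CDH3, the placental cadherin, was at 174 and 139 CPM in DU145 and 1.68 and 1.17 CPM in PC3. CDH2, the neural cadherin, was at 0.196 and 0.508 CPM in DU145 and 190.2 and 162 CPM in PC3, a log2 fold change of 8.95 ± 0.35. CDH11, a cadherin of bone and mesenchyme, was at 0.701 and 0.931 CPM in DU145 and 162 and 146 CPM in PC3, and CDH7 was higher in PC3 too (7.11 ± 0.30).

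Of the catenins, CTNNA1, which links cadherins to actin, was at 486 and 474 CPM in DU145 and 2.35 and 3.34 CPM in PC3. CTNNA3, a related alpha catenin of muscle, was higher in PC3, at 0.0280 and 0 CPM in DU145 and 12.8 and 12.1 CPM in PC3, still well below the level of CTNNA1 in DU145 in CPM, which is not scaled for gene length. CTNNB1, the beta catenin gene, was at 319.7 and 305 CPM in DU145 and 375 and 329 CPM in PC3 and did not pass the test. VCL, which encodes the actin linker vinculin, was higher in PC3 (1.16 ± 0.16). Over the whole list of cadherins and catenins, 10 were higher and 9 lower of 28 tested.

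Genes of desmosomes, which anchor keratins at the cell surface, went both ways, 6 higher and 6 lower of 13 tested. DSP, the desmoplakin gene, was at 189 and 179.7 CPM in DU145 and 2.38 and 1.36 CPM in PC3. PKP1, a plakophilin, was at 1.35 and 1.72 CPM in DU145 and 612 and 706 CPM in PC3. DSC3, a desmosomal cadherin, was higher in PC3 (2.58 ± 0.19) and PPL, the periplakin gene, lower (-2.55 ± 0.31). Tight junction genes were mostly lower in PC3, 15 of 24 tested against 3 higher, 9 and 2 of them by at least 4-fold. CLDN1, a sealing claudin, was at 33.9 and 44 CPM in DU145 and 3.05 and 4.09 CPM in PC3. F11R and JAM3, junctional adhesion molecules, were lower (-2.45 ± 0.16 and -4.40 ± 0.21), and LSR, a protein of tricellular junctions, was at 62.2 and 48.1 CPM in DU145 and 2.01 and 1.36 CPM in PC3. The exceptions were the claudins CLDN11, at 4.09 and 2.74 CPM in DU145 and 159.6 and 197 CPM in PC3, CLDN4 (2.57 ± 0.33) and CLDN15 (1.63 ± 0.23).

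The matrix list gave 23 members higher and 14 lower in PC3 of 49 tested, with 18 and 9 of them at least 4-fold. Collagen VI, a filament of the pericellular matrix, was higher in PC3 in its 3 listed chains. COL6A3 was at 1.35 and 1.16 CPM in DU145 and 442 and 571 CPM in PC3. COL6A1 was at 80.1 and 82.8 CPM in DU145 and 664 and 657 CPM in PC3, and COL6A2 at 75.8 and 80.6 CPM in DU145 and 631 and 649.5 CPM in PC3. FBN2, a fibrillin, was at 0.729 and 0.536 CPM in DU145 and 287 and 332 CPM in PC3, and LOXL1, which cross-links elastin and collagen, at 0.617 and 0.733 CPM in DU145 and 179 and 164 CPM in PC3. Members lower in PC3 included basement membrane genes. LAMA1, a laminin chain, was at 70.9 and 76.9 CPM in DU145 and 0.548 and 0.843 CPM in PC3, and COL4A4, a chain of collagen IV, at 40.3 and 46.1 CPM in DU145 and 0.0609 and 0.130 CPM in PC3. TGFBI, a matrix protein that binds integrins, was lower in PC3 too (-5.80 ± 0.31).

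Proteases of matrix turnover and their inhibitors had the highest median of the lists, at 2.88, with 21 higher and 6 lower of 30 tested and 17 at least 4-fold higher. PLAU, which encodes urokinase, was at 129 and 140.4 CPM in DU145 and 1320.5 and 1719.9 CPM in PC3. Its receptor PLAUR was also higher (1.28 ± 0.15), as were the tissue activator PLAT (5.08 ± 0.28) and the inhibitor SERPINB2 (7.65 ± 0.31). MMP14, a membrane metalloprotease, was at 9.22 and 11.6 CPM in DU145 and 239.9 and 306 CPM in PC3. Lower in PC3 were MMP15, a related membrane protease (-4.34 ± 0.23), and RECK, an inhibitor of such proteases (-3.39 ± 0.17).

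Of 22 integrin subunits tested, 8 were higher and 10 lower in PC3, and 1 and 3 of these by at least 4-fold. ITGB1, the common beta subunit, was at 3011 and 2826 CPM in DU145 and 4570.1 and 4749.8 CPM in PC3. ITGB4, the partner of laminin binding at hemidesmosomes, was higher in PC3 (1.40 ± 0.34) and ITGA1, a collagen receptor subunit, lower (-3.89 ± 0.64). Of the caveolar genes, CAV1 was at 242 and 233 CPM in DU145 and 293 and 319.5 CPM in PC3 and did not pass the test, while its coat gene PTRF was near absent in PC3 and EHD2, a caveolar ATPase, was at 146 and 151 CPM in DU145 and 1.80 and 2.40 CPM in PC3.

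**Figure D2:**
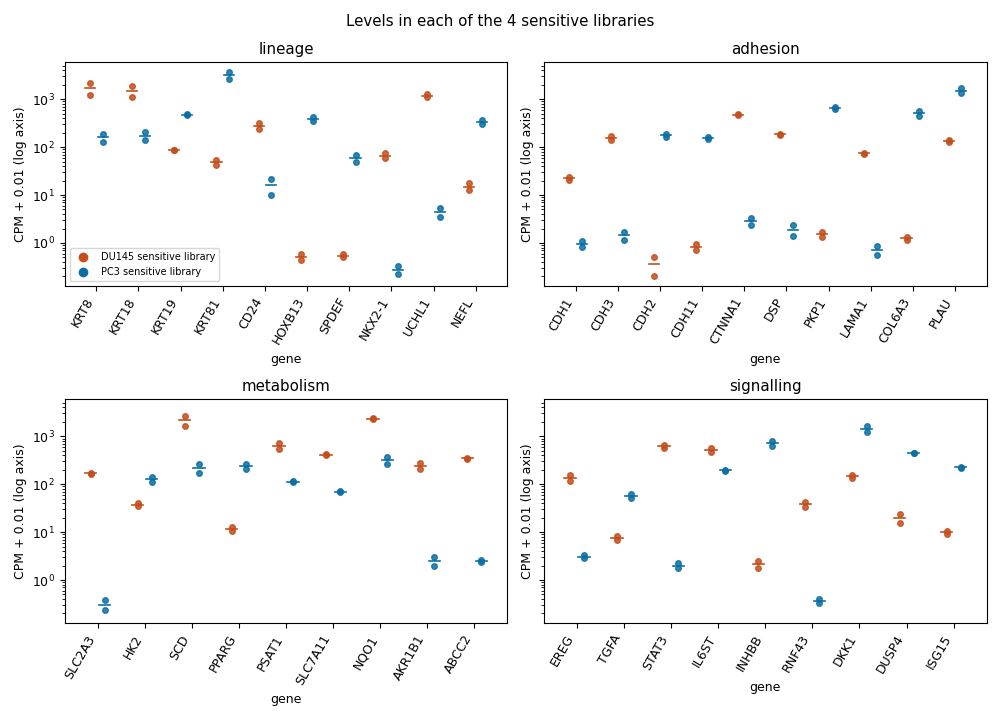
CPM plus 0.01 (log axis) of named genes in each of the 4 sensitive libraries, with a bar at the mean of the 2 libraries of a line. The points of a line lie close together compared with the distance between lines, with KRT8 and KRT18 higher in DU145 and KRT81 and CDH2 higher in PC3.

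Metabolic genes were lower in PC3 in several lists. Of 40 genes of serine, one-carbon and amino acid metabolism tested, 27 were lower in PC3 and 4 higher, with a median of -1.24. By at least 4-fold, 11 were lower and 2 higher. PSAT1 and PHGDH, enzymes of serine synthesis, were at 544 and 742 CPM in DU145 and 112 and 115 CPM in PC3, and at 195 and 273 CPM in DU145 and 75.3 and 64.2 CPM in PC3, in that order. ASS1, the arginine synthesis enzyme, was at 212 and 229 CPM in DU145 and 30.3 and 34.7 CPM in PC3. BCAT1, which transfers the amino group of branched-chain amino acids, was near absent in PC3, at 1.07 and 1.56 CPM in PC3 against 208 and 193 CPM in DU145. ODC1, the first enzyme of polyamine synthesis, was among the 4 that were higher, at 189.5 and 136 CPM in DU145 and 813 and 848 CPM in PC3.

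Antioxidant, glutathione and NADPH genes followed the same direction, 32 lower and 11 higher of 50 tested. By at least 4-fold, 12 were lower and 1 higher. NQO1, a quinone reductase under NRF2, was at 2376 and 2332 CPM in DU145 and 372 and 269 CPM in PC3. SLC7A11, the cystine importer, was at 418 and 399.8 CPM in DU145 and 68 and 71.1 CPM in PC3. GCLC, the first enzyme of glutathione synthesis, and GSR, glutathione reductase, were lower too (-2.48 ± 0.14 and -2.73 ± 0.20). AKR1B1, aldose reductase, was at 272 and 205 CPM in DU145 and 1.92 and 2.95 CPM in PC3, and the low level of AKR1C2 in PC3 (-7.69 ± 0.29) comes with the doubt that reads of its near-identical relatives may have been split between them. KEAP1, which targets NRF2 for degradation, was higher in PC3, at 50.4 and 45 CPM in DU145 and 124 and 130.0 CPM in PC3, and so was PRDX2, a peroxiredoxin (1.93 ± 0.23).

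Drug transport and drug metabolism genes were lower in PC3 in 20 of 32 tested and higher in 5. By at least 4-fold, 10 were lower and 2 higher. ABCG2, a drug efflux pump, was at 11.1 and 12.6 CPM in DU145 and 0.213 and 0.259 CPM in PC3. CYP1B1, an oxidase of hormones and aromatic compounds, was at 140.0 and 131 CPM in DU145 and 0.823 and 0.422 CPM in PC3. UGDH, which makes the substrate for glucuronidation, was at 1007 and 1077 CPM in DU145 and 127 and 118 CPM in PC3. ABCB1, the efflux pump for taxanes, was low in both sensitive lines, at 1.68 and 1.58 CPM in DU145 and 2.19 and 3.47 CPM in PC3. Its difference (0.79 ± 0.24) passed the test (adjusted p = 0.016 in edgeR) but not without DU145 replicate 2 or without PC3 replicate 2, where adjusted p was 0.0846 and 0.196, nor in the sensitive libraries alone, where it was 0.0747.

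Of 32 glycolysis genes tested, 15 were higher and 8 lower in PC3, with 3 at least 4-fold higher, 3 at least 4-fold lower and a median of 0.16. PGK1, phosphoglycerate kinase, was at 624 and 486 CPM in DU145 and 1322 and 1372 CPM in PC3, and HK2, a hexokinase, at 35.6 and 39.7 CPM in DU145 and 111 and 143 CPM in PC3. The glucose carriers SLC2A3, at 164 and 171 CPM in DU145 and 0.366 and 0.227 CPM in PC3, and SLC2A1 (-0.80 ± 0.22) were lower, though the SLC2A1 call was lost without PC3 replicate 2 (edgeR adjusted p 0.052). ENO1 and GAPDH did not pass the test (0.11 ± 0.17 and 0.07 ± 0.16). CA12, a carbonic anhydrase of the hypoxia list, was at 6.42 and 4.94 CPM in DU145 and 136 and 136 CPM in PC3, and DDIT4, an mTOR inhibitor of the same list, at 102 and 133 CPM in DU145 and 4.94 and 7.36 CPM in PC3.

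Lipid genes were divided. Cholesterol synthesis and uptake genes were lower in 11 and higher in 3 of 24 tested, 4 and 0 of them by at least 4-fold. The share called, 58.3%, was near the 57.8% over all genes tested. FDFT1, squalene synthase, was at 249 and 348 CPM in DU145 and 50.6 and 43.6 CPM in PC3, and SREBF2, the factor that drives the pathway, at 255 and 367 CPM in DU145 and 75.3 and 74.5 CPM in PC3. SCD, a fatty acid desaturase, was at 1658 and 2636 CPM in DU145 and 271 and 175 CPM in PC3. DU145 replicate 2 was above replicate 1 in each of these 3 genes, and without it 9 members of the cholesterol list were called in place of 14, with 10 called without PC3 replicate 2. PPARG, a nuclear receptor of lipid storage, was higher in PC3, at 10.4 and 13 CPM in DU145 and 265 and 207 CPM in PC3, and its target FABP4, a fatty acid carrier, was near absent in DU145, at 0.308 and 0.113 CPM in DU145 and 73.6 and 86.5 CPM in PC3. VLDLR, a lipoprotein receptor, was near absent in PC3 (-7.52 ± 0.31).

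Metallothioneins and iron genes were lower in 10 and higher in 1 of 18 tested, 7 and 0 of them by at least 4-fold. The share called was 61.1%, against 57.8% over all genes tested. MT1E was at 128 and 110.0 CPM in DU145 and 0.670 and 0.746 CPM in PC3, though the MT1 genes are close copies whose reads may have been shared, and MT2A was the member higher in PC3 (1.06 ± 0.26). Mitochondrially encoded genes were higher in PC3 in 6 of 13 with none lower, and their levels varied between replicates. MT-ND2, a subunit of complex I, was at 424 and 722 CPM in DU145 and 1769 and 2751 CPM in PC3, and MT-CO1, of complex IV, was at 772 and 1444 CPM in DU145 and 3515 and 1195 CPM in PC3 and did not pass the test.

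Signaling genes differed at the level of ligands, receptors, inhibitors and targets. Among receptors of the EGFR family, ERBB2 and ERBB3 were lower in PC3 (-1.67 ± 0.13 and -2.29 ± 0.24), and EGFR was at 221 and 229.8 CPM in DU145 and 135 and 137 CPM in PC3. MET, the receptor of hepatocyte growth factor, was higher, at 215 and 185 CPM in DU145 and 472 and 406 CPM in PC3. Their ligands differed in both directions. EREG, or epiregulin, was at 117 and 153 CPM in DU145 and 2.83 and 3.31 CPM in PC3, and TGFA, or transforming growth factor alpha, at 6.87 and 8.10 CPM in DU145 and 52.1 and 61.6 CPM in PC3. In the VEGF and FGF families, the co-receptor NRP1 was at 232 and 217 CPM in DU145 and 2522 and 2100.4 CPM in PC3, VEGFC was higher in PC3 (3.78 ± 0.21), and FGFR3, an FGF receptor, was lower (-7.50 ± 0.44). In the insulin-like growth factor list, IGF1R was at 234 and 248 CPM in DU145 and 12.8 and 16.6 CPM in PC3. The docking protein IRS1 was higher in PC3 (2.68 ± 0.15) and its relative IRS2 lower (-4.73 ± 0.36).

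In the list of PI3K and mTOR genes, 11 were higher and 7 lower of 29 tested. PIK3CB, a catalytic PI3K subunit, was lower in PC3 (-1.74 ± 0.13) and INPP4B, a further lipid phosphatase, higher (2.79 ± 0.28). In the JAK-STAT list, STAT3 was at 579 and 673 CPM in DU145 and 1.77 and 2.21 CPM in PC3 and STAT5B at 76.5 and 92.5 CPM in DU145 and 0.183 and 0.292 CPM in PC3. Over the list, 9 were higher and 14 lower of 35 tested, with a median of -0.09. IL6ST, the shared gp130 chain, was at 558 and 477 CPM in DU145 and 190.1 and 199 CPM in PC3, and OSMR, the oncostatin M receptor, at 735 and 641 CPM in DU145 and 68.8 and 61.1 CPM in PC3, both lower in PC3. LIF, a ligand of gp130, was higher in PC3 (1.85 ± 0.24), as was IL7R, the interleukin 7 receptor, at 0.421 and 0.367 CPM in DU145 and 134 and 199 CPM in PC3.

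In the TGF-beta and BMP list 15 members were higher and 17 lower of 45 tested, 8 and 4 of them by at least 4-fold. INHBA, the activin A subunit, was higher in PC3 like INHBB (5.07 ± 0.42), and so was FST, the activin inhibitor follistatin, at 0.869 and 0.733 CPM in DU145 and 315 and 271 CPM in PC3. The ligands BMP7 and BMP6 were lower, BMP7 at 17.9 and 16.7 CPM in DU145 and 0.457 and 0.259 CPM in PC3 and BMP6 at 10.3 and 13.2 CPM in DU145 and 0.152 and 0.0324 CPM in PC3. Wnt genes were mostly lower in PC3, 25 of 42 tested against 9 higher, with 19 at least 4-fold lower and a median of -1.41. RSPO3, which amplifies Wnt signals, was at 172 and 122 CPM in DU145 and 0.274 and 0.227 CPM in PC3. RNF43, a ligase that removes Wnt receptors, was at 43.4 and 32.8 CPM in DU145 and 0.396 and 0.324 CPM in PC3, and the inhibitor SFRP1 at 37.8 and 34.1 CPM in DU145 and 0.0914 and 0.0649 CPM in PC3. The inhibitor DKK1 was higher in PC3, at 133 and 159 CPM in DU145 and 1643 and 1218 CPM in PC3, as was the receptor FZD8 (6.89 ± 0.24). Of the ligands, WNT7B was lower in PC3 (-2.14 ± 0.21) and WNT7A higher (6.47 ± 0.45).

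Among Notch genes, the receptor NOTCH3 was near absent in PC3, at 0.884 and 1.10 CPM in PC3 against 179 and 169 CPM in DU145. The ligand JAG1 was higher, at 2.69 and 3.44 CPM in DU145 and 111 and 79.5 CPM in PC3, the ligand JAG2 lower (-3.15 ± 0.16), and the target HEY1 higher, at 1.60 and 1.41 CPM in DU145 and 94.8 and 152 CPM in PC3. Ephrins and Eph receptors were higher in 11 and lower in 5 of 20 tested, with EPHA2 at 153 and 233 CPM in DU145 and 843 and 734 CPM in PC3 and EFNB1 at 9.81 and 9.73 CPM in DU145 and 86.3 and 87.7 CPM in PC3. Targets of YAP and TEAD went both ways. CTGF was higher in PC3 (2.54 ± 0.34) and ANKRD1 lower (-4.27 ± 0.25).

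Several ERK feedback genes were higher in PC3. DUSP6, a phosphatase that turns ERK off, was at 1.71 and 4.06 CPM in DU145 and 65.3 and 59.4 CPM in PC3, and DUSP4, of the same family, at 15.5 and 24.3 CPM in DU145 and 456 and 451 CPM in PC3. SPRY4, a feedback inhibitor, was at 0.701 and 1.66 CPM in DU145 and 186 and 117 CPM in PC3. ETV1 and ETV4, ETS factors, and FOSL1, of AP-1, were higher as well (5.77 ± 0.38, 3.44 ± 0.22 and 3.91 ± 0.29). The immediate early genes EGR1 and FOS were lower in PC3, yet they differed greatly between the DU145 libraries, EGR1 at 9.11 and 79.9 CPM in DU145 and 0.213 and 0.259 CPM in PC3 and FOS at 8.27 and 61.5 CPM in DU145 and 0.488 and 0.584 CPM in PC3. In all, 16 of the 34 tested members of this list were higher and 10 lower.

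Interferon stimulated genes and sensors were higher in PC3 in 26 of 38 tested and lower in 3, with 16 at least 4-fold higher and a median of 1.55. ISG15, a ubiquitin-like modifier, was at 10.7 and 9.14 CPM in DU145 and 221 and 226 CPM in PC3. OAS2, a sensor of double-stranded RNA, was at 0.393 and 0.310 CPM in DU145 and 21.2 and 20.3 CPM in PC3, and IFIT2 at 8.52 and 10.9 CPM in DU145 and 107 and 119 CPM in PC3. IFI44 was higher too (5.15 ± 0.23), and USP18, which removes ISG15 from proteins, was lower (-1.54 ± 0.18). Of 22 MHC and antigen processing genes tested, 12 were lower and 1 higher, 6 and 1 of them by at least 4-fold. The share called, 59.1%, was near the 57.8% over all genes tested, so only the direction is read. HLA-B was lower in PC3, at 309 and 364 CPM in DU145 and 32.8 and 31.6 CPM in PC3, although HLA genes vary between individuals and share sequence, so that reads may be lost or split. B2M, their invariant partner, was at 728 and 717 CPM in DU145 and 686 and 676 CPM in PC3 and did not pass the test.

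NF-kB genes and inflammatory cytokines were lower in 21 and higher in 11 of 37 tested, 12 and 8 of them by at least 4-fold. BIRC3, an inhibitor of apoptosis and NF-kB target, was at 291 and 346 CPM in DU145 and 19 and 32.6 CPM in PC3, and NFKBIA, the NF-kB inhibitor, at 286 and 298 CPM in DU145 and 57.2 and 64.8 CPM in PC3. CSF1, a macrophage growth factor, was lower as well (-2.59 ± 0.20). IL1B, or interleukin 1 beta, was near absent in DU145, at 0.561 and 0.762 CPM in DU145 and 69.9 and 85.1 CPM in PC3.

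**Figure D3:**
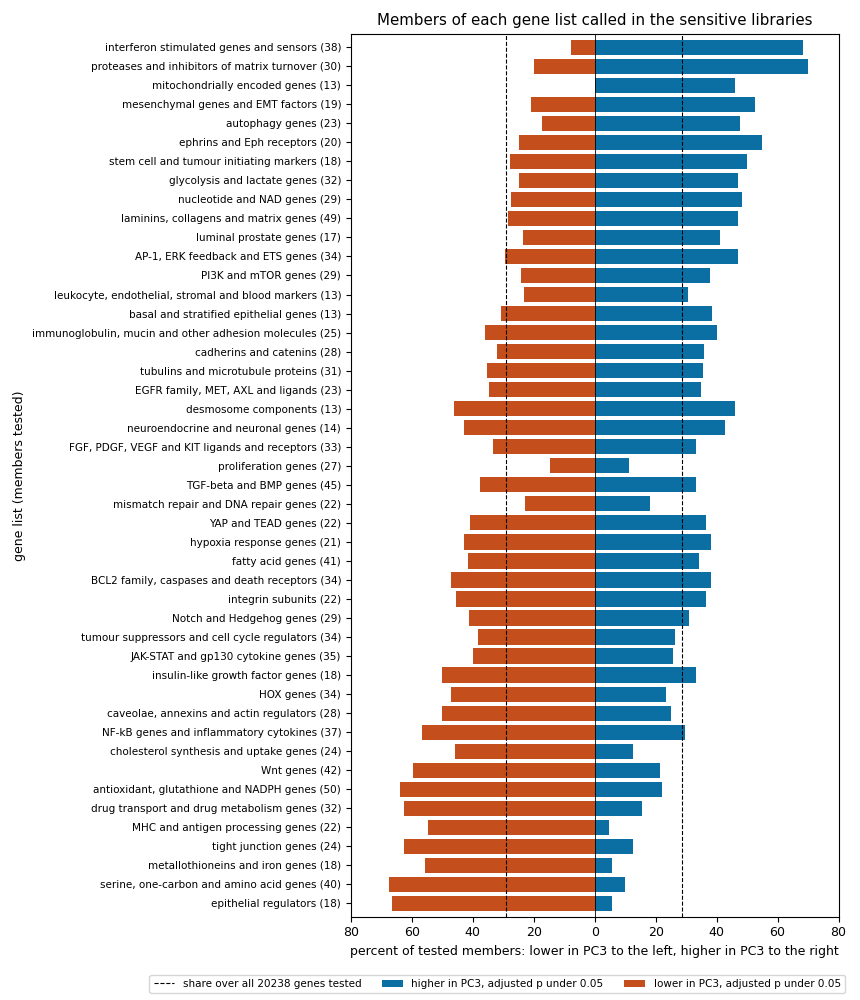
Percent of tested members of 46 gene lists with at least 10 tested members that were higher (right) or lower (left) in PC3 at an adjusted p under 0.05, with dashed lines at 28.6% and 29.2%, the shares over all genes tested. Interferon genes and proteases are among those that lean most to the right and epithelial regulators, amino acid and tight junction genes to the left, while proliferation genes fall below both lines.

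Few proliferation genes differed at this depth and replication. Of 27 tested, 3 were higher and 4 lower, and none differed 4-fold. MKI67, a marker of cycling cells, was at 427 and 449.9 CPM in DU145 and 329.9 and 334 CPM in PC3, and its difference (-0.40 ± 0.15) was lost when any 1 of the 4 sensitive libraries was left out (edgeR adjusted p 0.091 to 0.17). TOP2A, a topoisomerase, was lower in PC3 (-1.88 ± 0.18) and BIRC5, or survivin, higher (1.11 ± 0.19). Among tumor suppressors, RB1 was at 86.3 and 96.8 CPM in DU145 and 74 and 75 CPM in PC3 and did not pass the test. STK11 was higher in PC3, at 23.6 and 28.2 CPM in DU145 and 49.1 and 53.8 CPM in PC3. CDKN2A was present in both lines, at 151 and 146 CPM in DU145 and 54.9 and 51 CPM in PC3. CCND1, or cyclin D1, was higher in PC3 and CCND3, or cyclin D3, lower (1.5 ± 0.20 and -2.75 ± 0.16). CDK6, their kinase partner, was at 11.8 and 14.7 CPM in DU145 and 88.7 and 104 CPM in PC3.

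Genes of cell death and of the docetaxel target went both ways. In the BCL2, caspase and death receptor list 13 were higher and 16 lower of 34 tested. By at least 4-fold, 3 were higher and 8 lower. FAS, a death receptor, was lower in PC3 (-3.85 ± 0.28), and TNFRSF10D, a decoy receptor for TRAIL, was near absent there (-7.49 ± 0.30). DAPK1, a death-associated kinase, was at 36.7 and 37.2 CPM in DU145 and at 2 and 0 counts in PC3. Tubulins and microtubule proteins were higher in 11 and lower in 11 of 31 tested, 4 and 6 of them by at least 4-fold. Reads of tubulin genes may be shared among close copies. TUBB3, the neuronal beta tubulin, was at 24.8 and 15.9 CPM in DU145 and 8.59 and 6.26 CPM in PC3. TUBB was at 1417 and 1131 CPM in DU145 and 1929 and 1546 CPM in PC3 and its difference (0.45 ± 0.17) was lost without DU145 replicate 2 or PC3 replicate 1 (edgeR adjusted p 0.3 in both), under RLE scaling (adjusted p 0.053), in the sensitive libraries alone (adjusted p 0.058) and without either resistant PC3 library (adjusted p 0.0504 and 0.0511). MAP2, a neuronal microtubule protein, was at 74.4 and 119 CPM in DU145 and 0.548 and 1.01 CPM in PC3. SLFN11, which sensitizes cells to replication stress, was higher in PC3, at 6.39 and 6.91 CPM in DU145 and 66.2 and 90.7 CPM in PC3.

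The resistant libraries gave a second look at the line difference with no library in common. Both pairs were tested in 1 fit, however, and share its estimate of the spread. Of the 11697 genes called in the sensitive pair, 6619, or 56.6%, were also called on the same side in the resistant pair. A further 1096, or 9.37%, were called there on the opposite side. Over all genes tested, 56.7% were called in the resistant pair on either side. That share counts both directions and is not a background for the same-side share alone. Of the 4312 genes with at least a 4-fold difference, 2822 were called on the same side and 345 on the opposite side. Genes near absent in sensitive DU145 stayed at or below 1% of the sensitive PC3 level in both resistant DU145 libraries in 61 of 78 cases (78.2%). Genes near absent in sensitive PC3 stayed at or below 1% of the sensitive DU145 level in both resistant PC3 libraries in 48 of 84 (57.1%). These 2 counts concern the lower line alone. The higher line was still at 20 CPM or more in both its resistant libraries for 53 of the 78 genes and 47 of the 84. AKR1C2, for example, stayed low in PC3 but was also at 0.152 and 0.167 CPM in resistant DU145. The line difference itself differed between the pairs for 6951 genes, 34.3% of those tested, at an adjusted p under 0.05 in edgeR.

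UCHL1 kept its difference, with a log2 fold change of -8.14 in the resistant pair against -8.09 in the sensitive pair. CTNNA1 was at -8.04 against -7.40, CDH2 at 7.92 against 8.95 and NQO1 at -2.36 against -2.88. The interaction test did not call these 4 genes. HOXB13 and ISG15 kept their side with a smaller difference, 6.80 against 9.55 and 1.45 against 4.50, and STAT3 likewise, -7.48 against -8.30.

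Others did not keep theirs. CDH1 turned from -4.58 to 3.71, and it was at 0.364 and 0.472 CPM in resistant DU145 and at 6.12 and 4.95 CPM in resistant PC3. CDH3 turned from -6.78 to 1.89, KRT8 from -3.42 to 2.99 and SLFN11 from 3.56 to -1.13. VIM and ABCB1 turned as well, 0.56 to -0.91 and 0.79 to -3.64. ABCB1 was at 1218 and 1011 CPM in resistant DU145 and 94.8 and 84.4 CPM in resistant PC3. Both lines were thus far above their sensitive levels, and the ABCB1 call in the sensitive pair was not stable, as given above. SLC2A3 was at 0.72 and FAM83A at 0.03 in the resistant pair, neither past the test there, against -9.12 and -7.13 in the sensitive pair. KRT18, at -0.19, did not pass the test in the resistant pair either.

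**Figure D4:**
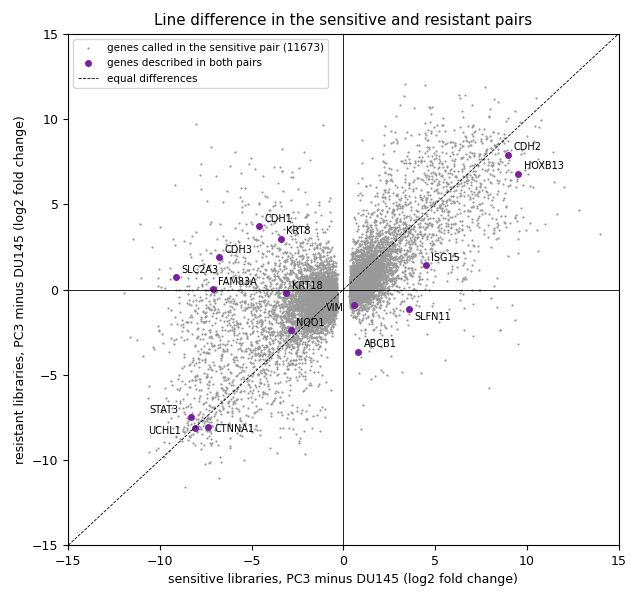
Log2 fold change of PC3 minus DU145 in the sensitive (x axis) and resistant (y axis) libraries for 11673 genes called in the sensitive pair, Y-linked genes and repeated symbols left out, with 16 named genes marked. UCHL1, CTNNA1 and CDH2 lie near the dashed line of equal differences, and CDH1, CDH3 and KRT8 lie in the upper left, on opposite sides of 0 in the 2 pairs.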

How the data were processed

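Bulk RNA-seq was measured in 8 libraries, 4 of them of sensitive cells. For each library the authors deposited a file of raw gene counts, with no normalization. The submitters' processing notes name Bowtie and hg38, while for the counting tool, annotation and strand setting the answer was not given in the sources used here. Without strand, reads of overlapping and antisense genes cannot be told apart.

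Libraries were grouped by their titles. Genes were filtered with filterByExpr, scaled by TMM and fitted in edgeR 4.0.16 (R 4.3.3) with 1 mean per group over all 8 libraries. The quasi-likelihood test was used with Benjamini-Hochberg adjustment over 20238 genes and a threshold of 0.05. Levels are CPM at the scaled library size, which are not scaled for gene length. The edgeR fit alone was tried on simulated counts, with 100 genes changed 2-fold and 100 changed 4-fold. It recovered 86 and 100 of them, and 3.12% of its calls were false. Far fewer genes differed there than between the lines, and the near absent rule was not simulated. Each simulated gene had the spread of the fitted trend at its level, and only genes above 100 expected counts were changed. Both settings can favor the fit, so the rates may not hold for the real libraries or for low genes. Alternatives were RLE scaling, DESeq2 1.42.0, other filters and thresholds, the sensitive libraries alone, a replicate block and each library left out. With 2 libraries per line, precision is limited by their number more than by depth.

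The members and gene lists were chosen with earlier results of these data known. Named genes were the 12 largest differences in each direction, up to 12 near absent genes per line by level, up to 4 members per list and direction, genes named whatever their values and neighbors of near absent genes. The following were outside that rule and were chosen after their values were seen: ASS1, B2M, CAV1, CD24, COL6A1, COL6A2, CSF1, CTNNB1, ENO1, ETV4, FN1, FOSL1, FOXA1, GAPDH, GCLC, GSR, IFIT2, IGF1R, IL6ST, ISG15, ITGB1, KAT2A, KEAP1, KRT7, KRT86, MMP14, MT-CO1, NFKBIA, NKX2-1, NQO1, NRP1, PGK1, PHGDH, PLAT, PLAU, PLAUR, PSAT1, RAB5C, RELN, SLC2A1, SLC7A11, UGDH, VCL, WNT7B. Y-linked genes and XIST were left out, and a few genes are not reported here.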

Additional observations from a re-analysis of the deposited data

Results flagged for a closer look

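The difference between the lines was itself compared between the resistant and the sensitive libraries by the interaction test of edgeR, which called 6951 genes, 34.3% of those tested. The genes below were chosen with earlier results known, and their number says nothing about them. The log2 line difference, resistant minus sensitive, was 8.29 for CDH1, 8.66 for CDH3, 6.41 for KRT8 and 2.94 for KRT18. It was 9.84 for SLC2A3, 7.16 for FAM83A and 0.82 for STAT3. It was -1.46 for VIM, -4.69 for SLFN11, -4.43 for ABCB1, -2.74 for HOXB13 and -3.05 for ISG15. Groups of 2 libraries are too small to look for a library far from the others.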

How the results depend on the processing

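Of 3373 values of 241 named genes under 14 alternatives, 3339 did not change call or direction, 24 lost the call, 10 gained it and 0 turned. Many of these genes were named because the main fit called them, and the alternatives reuse its libraries. Stable calls were therefore likely beforehand and say little about other genes. The calls lost were in CTNND1, SLC2A1, ABCB1, EGFR, MKI67, TUBB, DHX58 and PKM, and those gained in ZEB1, CAV1 and MT-CO1. The count of genes whose line difference differed between the pairs was 4073 at an adjusted p under 0.01. Genes near absent in PC3 numbered 44 at a minimum of 50 CPM, 40 at a limit of 0.5% and 0 at 0 counts, and those near absent in DU145 numbered 39, 49 and 2. These limits are stricter by construction. With a replicate block, 6272 genes were higher and 6294 lower in PC3, 1778 and 2565 of them by at least 4-fold, and 8270 differed between the pairs. Libraries of the same number deviated together with a correlation across genes of 0.063 between the sensitive lines, and of 0.061 to 0.32 over the 6 pairs of groups, highest between sensitive and resistant DU145. No label ties the numbers to a shared culture or day, so they were not taken to pair the libraries, and with 2 per group this was not settled. Leaving out 1 library at a time gave 4713 to 6013 genes higher, 4667 to 6099 lower and 5034 to 6822 that differed between the pairs. List medians moved by more than the spread between libraries in 129 of 672 cases, and the largest move was 7.16 in log2 fold change. The median of the cholesterol list, for example, went from -0.64 to -0.33 without DU145 sensitive replicate 2. List medians given above are therefore not all stable. Genes under a few CPM are limited by depth.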
